A study of Homo sapiens with 5 samples.

Results

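The anti-BRG1 CUT&Tag library of SNU638 cells, a human gastric cancer cell line, was described by its peaks. All peaks in its list were members, with no further choice, and these were 48793 of the 83512 peaks in the 5 lists of the series. CUT&Tag sends a transposase to an antibody on chromatin in permeabilised cells, so that fragments are cut and sequenced where the antibody sits. The comparison was with 2 lists made with IgG, an antibody without a chromatin target, in the same line. The first, IgG 1, held 11 peaks and the second, IgG 2, held 1746. The cells were untreated and unmodified in every library, the labels name no passage or clone, and each antibody had 1 library. The differences below therefore compare libraries and have no replicate check, and no test was made. Each share of peaks or genes is given with its 95% Wilson interval where precision matters, which covers counting error only and takes neighbouring peaks as independent.

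BRG1, encoded by SMARCA4, is an ATPase of the SWI/SNF (BAF) complexes, which use ATP to slide or evict nucleosomes and so open DNA at promoters and enhancers. It binds DNA with little preference for sequence and is brought to its sites by transcription factors, among which AP-1 (dimers of FOS and JUN proteins) is a known partner at enhancers. A peak shows where fragments rose above the expectation of the peak caller, and it does not measure what the gene expresses. The IgG lists hold peaks too, so a peak alone does not show that BRG1 was there. Below, a gene or start with BRG1 is one with a peak of this library.

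The sequences below are examples, picked because they hold the letters of a factor, and show what those letters look like under strong sites. Each is 101 bases of hg38 about a summit, the base with most fragments, on the plus strand, from one of the highest-ranked such sites whose summit sequence occurs once in the genome and touches no annotated exon. The first 3 are away from a start and hold the AP-1 letters TGANTCA, in capitals. The next 2 are at gene starts and hold the ETS letters CCGGAAG. The last 2 hold the site of CTCF, the insulator protein.
KRT80 region, between genes, chr12:52147442-52147542: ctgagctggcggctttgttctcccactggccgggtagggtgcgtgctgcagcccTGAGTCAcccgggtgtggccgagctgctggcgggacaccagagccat
HROB upstream, between genes, chr17:44138306-44138406: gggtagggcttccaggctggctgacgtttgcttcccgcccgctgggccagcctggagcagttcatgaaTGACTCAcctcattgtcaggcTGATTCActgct
TRIP13 intron, chr5:912603-912703: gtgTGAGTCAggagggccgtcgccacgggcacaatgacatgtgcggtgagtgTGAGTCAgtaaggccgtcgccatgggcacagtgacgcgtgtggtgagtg
COQ10B start, chr2:197453385-197453485: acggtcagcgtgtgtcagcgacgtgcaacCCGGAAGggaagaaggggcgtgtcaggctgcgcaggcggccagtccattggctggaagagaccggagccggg
FBXL12 start, chr19:9819264-9819364: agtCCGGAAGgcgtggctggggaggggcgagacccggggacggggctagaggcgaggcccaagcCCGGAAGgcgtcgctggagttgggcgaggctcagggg
SPTBN4 intron, chr19:40570751-40570851: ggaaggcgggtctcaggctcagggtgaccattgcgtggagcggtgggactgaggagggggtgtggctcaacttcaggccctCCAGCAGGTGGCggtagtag
KRT83 region, between genes, chr12:52327641-52327741: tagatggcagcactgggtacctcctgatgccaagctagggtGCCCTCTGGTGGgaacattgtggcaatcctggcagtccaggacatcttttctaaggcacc

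These 7 sites differed widely in height. The KRT80 site had 165 fragments at its summit, where 9.36 were expected by the peak caller, and was 41st of the 48793 peaks by -log10 q, the caller's adjusted significance. The HROB site had 152 fragments and ranked 43rd, and the TRIP13 site had 145 and ranked 63rd. The AP-1 letters occurred 2 times each in the HROB and TRIP13 sequences. In TRIP13 the 2 matches lie in 2 similar neighbouring stretches, so they are not independent. The count of copies in the genome takes exact matches only and does not register such stretches. COQ10B, a gene of coenzyme Q metabolism, had 104 fragments with the summit 58 bp upstream of its start. FBXL12, an F-box protein gene, had 105 fragments and 2 copies of the ETS letters. SPTBN4, a beta spectrin gene, had 124 fragments at its intronic CTCF site, and the KRT83 site had 39 and ranked 2123rd.

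The peaks were narrow and most were low. The median width was 232 bp (quartiles 175 and 392 bp), the widest peak was 3095 bp, and all peaks together covered 15667885 bp. The fold enrichment over expectation had a median of 5.13 and ran from 1.89 to 39.3. At the summit the median peak had 10 fragments (quartiles 6 and 19), the lowest 3 and the highest 485. A single low peak therefore rests on a handful of fragments. The total depth of the library is not in the peak lists. The smallest expectation among a list's peaks, in fragments, which follows depth, was 0.271 for BRG1, 0.0734 for IgG 1 and 1.23 for IgG 2, so IgG 1 was the shallowest of these on that scale and its short list is a weak background. The median of the IgG 1 peaks was 17 fragments (lowest 4, highest 63) and that of the IgG 2 peaks was 18.

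BRG1 peaks were concentrated at gene starts. A peak was placed at a transcription start site (TSS) when any of its bases was at most 1 kb from where a protein-coding transcript of GENCODE 44 begins, and otherwise in an exon, in an intron or between genes by its summit. Of the 48793 peaks, 15165 were at a TSS (31.1%, interval 30.7 to 31.5%), while this zone holds 2.45% of the sequenced bases. That was 211 peaks per Mb, or 12.7 times the zone's share of the genome. Exons held 2505 peaks (5.13%), or 36.8 per Mb. Introns held 15075 peaks (30.9%) and 12.9 per Mb, and the space between genes held 16048 (32.9%) and 9.88 per Mb, both below their share of the bases (39.9% and 55.3%).

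Neither IgG list had this shape. IgG 1 had 0 of its 11 peaks at a TSS (upper limit of the interval 25.9%), 4 in introns and 7 between genes. IgG 2 had 29 of 1746 at a TSS (1.66%, interval 1.16 to 2.38%), 12 in exons, 214 in introns and 1491 between genes (85.4%). The share at a TSS was thus lower than the zone's 2.45% of bases in IgG 2 and far above it in BRG1.

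Peaks at a TSS were also the highest and widest. They had a median of 18 fragments at the summit (quartiles 11 and 30) and a median width of 419 bp. Exon peaks had 8 fragments and 202 bp, intron peaks 7 fragments and 197 bp, and peaks between genes 8 fragments and 206 bp. Of the TSS peaks 75.4% had a -log10 q of at least 5, against 29.3% of exon, 35.6% of intron and 41.2% of intergenic peaks. When the list was cut into 10 equal bins by -log10 q, the share at a TSS fell at every step, from 65.2% in the highest bin (median 44 fragments) to 29.9% in the fifth bin and 7.73% in the lowest (median 3 fragments). Introns went the other way, from 14.4% to 44.3%. The split of BRG1 between starts and other places therefore depends on how low a peak is admitted.

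Within the start zone the summits crowded the start itself. The summit lay within 100 bp of a start in 40.2% of TSS peaks and within 250 bp in 69.0%. It lay upstream of the nearest start in 54.2% (interval 53.4 to 55.0%), so both sides were used. The starts of at least 2 genes lay near 2012 of these peaks (13.3%), as at pairs of genes read away from each other. Exon peaks had their summit in coding sequence in 66.9% of cases and in a 3′ untranslated part in 31.8%. Among intron peaks 21.98% lay in the first intron of the gene's main transcript, close to the 20.8% of intron bases found there.

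Between genes, the peaks were mostly far from any coding start. The median distance was 34.1 kb (quartiles 13.2 and 89.2 kb), and 22.96% of the 16048 lay over 100 kb away (3685 peaks). Long noncoding RNA genes took up a part of them, since 27.1% had the summit inside such a gene and 11.4% lay within 1 kb of the start of one.

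The peaks were densest on the most gene-rich chromosomes and at chromosome ends. Chromosome 19 had the highest density with 55.7 peaks per Mb (24.5 coding genes per Mb), followed by chromosome 17 with 44.7 (14.0 genes) and chromosome 22 with 37.9 (11.1 genes). Chromosome 4 had 8.86 peaks per Mb (3.96 genes). X broke the order, with the lowest density of the chromosomes compared, 5.41 peaks per Mb, at 5.51 genes per Mb, where chromosome 21 had 19.8 peaks at 5.46 genes. On X 48.8% of the peaks were at a TSS. Away from a TSS, the outer 5 Mb of the chromosomes, unsequenced bases included, had 29.5 peaks per Mb, the next 5 Mb had 15.01, those from 10 to 20 Mb had 12.2 and the rest had 8.396. Gene density fell less over the same zones, from 10.6 to 5.84 genes per Mb. The outer zone's non-TSS peaks had a median of 9 fragments and a GC content of 62% in the 200 bp about the summit, against 7 fragments and 56% in the innermost zone. The part of base composition in these densities was not tested.

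Summits were rich in G and C in every place. The median GC content in the 200 bp about the summit was 67% at a TSS, 62% in exons, 57.5% between genes and 57% in introns. Windows 1 kb to each side had 50.5%, 52.5%, 47.75% and 48.75% in the same order. The same width at all gene starts, centred on 1 start per gene, had 66.5%, which the TSS summits matched closely, and IgG 2 summits had 41%.

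Among 19689 genes that have a protein-coding transcript, 12512 (63.5%) carried BRG1 at a TSS, the background against which the gene lists below are read. A peak with a -log10 q of at least 5 was at the start of 10902 genes (55.4%). In the gene body, from first to last base, 12633 genes (64.2%) had a summit. A single TSS peak was found for 8764 genes, 2 for 2956 and 3 or more for 792, while 4816 genes (24.5%) had neither a TSS peak nor a summit in the body. The best TSS peak of a gene had a median -log10 q of 15.3.

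The genes that encode SWI/SNF itself nearly all had BRG1 at a start. A TSS peak was present for 28 of the 29 subunit genes (96.6%, interval 82.8 to 99.4%), and all 29 had a summit in the body. SMARCA4, which encodes BRG1, had 19 fragments at its start where 1.60 were expected, and 6 summits in the body. Its paralogue SMARCA2, the other ATPase, had 51 fragments, at an internal start. SMARCD2, a BAF60 subunit, had the list's highest -log10 q at 59.0, with 75 fragments where 4.49 were expected. ACTB, whose actin is part of the complex, had 80 fragments over a higher expectation (7.63). ARID1B, the DNA-binding subunit paralogous to ARID1A, had 16 summits in the body and ARID1A had 8. ACTL6B, the neuronal counterpart of ACTL6A, was the gene without a TSS peak and had 1 summit in the body with a -log10 q of 2.58, whereas ACTL6A had 38 fragments at its start.

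AP-1 genes were similar, with 13 of 14 (92.9%, interval 68.5 to 98.7%). ATF3, a stress-induced member, had 100 fragments at an internal start and ranked 251st of all peaks. FOSL1 had 106 fragments (10.4 expected) and FOSL2 had 86 (5.17 expected). JUN had 48, JUNB 57 and JUND 53 fragments, all single TSS peaks. FOSB was low, with 12 fragments where 3.44 were expected, and BATF, a lymphoid member, had none at its start. The high FOSL1, FOSL2 and ATF3 peaks and the low FOSB peak came from the same library and the same gene family.

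Genes of the Hippo pathway, in which YAP1 and WWTR1 act through TEAD factors, had 15 of 17 with a TSS peak (88.2%, interval 65.7 to 96.7%). TEAD2 stood out with 140 fragments where 6.003 were expected, the 49th highest peak of the library, though this peak was also within 1 kb of the start of DKKL1. YAP1 had 37 fragments, WWTR1 50, TEAD4 30, TEAD1 22 and TEAD3 16. The classic YAP targets CCN1, CCN2 and ANKRD1 had 32, 23 and 14. TEAD1 had 13 summits in its body. The X-linked VGLL1 and VGLL3 on chromosome 3 had neither a TSS peak nor a body summit, unlike VGLL4, which had 42 fragments and 8 body summits.

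Epithelial genes were split. A TSS peak was found for 14 of 19 (73.7%, interval 51.2 to 88.2%), a share whose interval held the background. KRT8 had 64 fragments and 5 TSS peaks, EPCAM 36 (1.18 expected) and ESRP2, an epithelial splicing factor, 63. CDH1 (E-cadherin) had 14 fragments at its start and a higher peak elsewhere in its body, with a -log10 q of 26.8. KRT7, KRT20, CLDN4, OVOL1 and CDH17 had none at a start, and of these CLDN4 had a body summit with a -log10 q of 18.8. VIL1 and GRHL2 passed with 6 and 3 fragments.

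Gastric and gut lineage factors had 13 of 20 (65.0%), close to the background share. FOXA3 had the highest TSS peak with 66 fragments, near the start of SYMPK as well, then KLF5 with 49, SOX9 with 35 and GATA6 with 31. GATA4 had 27 fragments and 8 body summits. SOX2, a foregut factor, had 13 and PDX1 had 11. HNF4A, CDX1, CDX2, GATA5, BARX1 and SPDEF were among those with no TSS peak.

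Genes of the differentiated gastric mucosa formed the lowest of the curated lists, with 4 of 20 (20.0%, interval 8.07 to 41.6%). MUC1, a membrane mucin, had 58 fragments at its start. MUC6, the gland mucin, had 23, GAST (gastrin) 11 and CLDN18 (the gastric claudin) 4. The trefoil genes TFF1, TFF2 and TFF3, the gastrokines GKN1 and GKN2, the proton pump genes ATP4A and ATP4B, the pepsinogen gene PGC and the hormone genes SST and GHRL had no TSS peak. MUC5AC, the surface mucin, had 3 body summits, the best with a -log10 q of 13.3, and ANXA10 had 3, the best with 12.6, both without one at a start. No BRG1 peak was thus called at most of these starts at this depth, and what the genes express was not measured.

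Lists of other cell types were between these. Mesenchymal genes had 7 of 15 (46.7%, interval 24.8 to 69.9%), with COL1A1 at 44 fragments and VIM at 33, and no peak at a start for ZEB2, SNAI2, TWIST1, TWIST2, CDH2, FN1, COL3A1 or PDGFRB. Neuronal genes had 7 of 17 (41.2%, interval 21.6 to 63.99%), with DLG4 at 83 fragments, TUBB3 at 60 and SLC17A7 at 54. Blood genes had 5 of 18 (27.8%, upper limit of the interval 50.9%), the highest with 30 fragments. Across these lists the interval of the mesenchymal and neuronal shares held the background and that of the blood share did not.

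The genes of glutathione metabolism and ferroptosis, which the study is about, had 23 of 24 with a TSS peak (95.8%, interval 79.8 to 99.3%). GSR, glutathione reductase, had 58 fragments (2.05 expected), GCLC, whose product catalyses the first step of glutathione synthesis, 55, and GCLM, its modifier, 48. The GCLC value was from the peak near its most upstream annotated start (chromosome 6, 53615661 to 53616054), with the summit 1.1 kb from that start. Its other 2 TSS peaks, with summits 68.9 and 71.8 kb downstream of that start, had 24 fragments (53548017 to 53548315) and 25 (53544791 to 53545250), and the site the study examined is in the latter. NQO1 had 43, SRXN1 46 and GPX4 53 fragments, the last over an expectation of 8.15. SLC7A11, the cystine transporter, had 9 and SLC40A1, the iron exporter, 6. In its body SLC7A11 had a higher peak, with a -log10 q of 25.0 against 5.56 at its start. GPX2 had neither a TSS peak nor a body summit.

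Families defined by their symbols spread over the whole range. The proteasome had 37 of 39 genes with a TSS peak (94.9%), cytosolic ribosomal proteins 73 of 85 (85.9%), replication-dependent histones 54 of 63 (85.7%) and ZNF zinc fingers 383 of 508 (75.4%). HOX genes had 18 of 39 (46.2%) and keratin-associated proteins 29 of 94 (30.9%). Olfactory receptors, which are expressed mainly in olfactory neurons, had 10 of 390 (2.56%, interval 1.40 to 4.65%), interferon alpha genes 1 of 13 and bitter taste receptors 0 of 24 (upper limit 13.8%). Only 1 of the 10 olfactory receptor peaks and 10 of the 29 at keratin-associated proteins had a -log10 q of at least 5, against 346 of 383 for the zinc fingers. Genes of one family often neighbour each other and can share a peak, so they are not independent.

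Long genes had more summits but fewer per length. Genes under 10 kb had 1.08 summits per 10 kb, those from 10 to 50 kb 0.517, those from 50 to 200 kb 0.240, those from 200 to 500 kb 0.115 and those of 500 kb or more 0.0422. At least 10 summits were found in 242 genes. RPTOR, the mTORC1 scaffold, had the most with 40 over 422 kb (at a -log10 q of at least 5 CCDC200 led with 33 and RPTOR kept 15), then CAMTA1 with 39, PTPRN2 with 38, CCDC200 with 37, MAD1L1 with 35, GSE1 with 33, RBFOX3 with 31, DIP2C with 29, SEPTIN9 with 28 and AGAP1 with 26.

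The 9 genes other than CCDC200 had in common a place near a chromosome end, and most of their summits were low. The median fragments per summit were 8 in RPTOR, 6 in CAMTA1, PTPRN2, MAD1L1 and AGAP1, and 11 in GSE1, the highest of the 9. At a -log10 q of at least 5, 15 of the 40 RPTOR summits remained, 13 of 39 in CAMTA1, 9 of 38 in PTPRN2 and 5 of 35 in MAD1L1. All 9 lay within 7 Mb of an end, from DIP2C at 0.274 Mb to CAMTA1 at 6.79 Mb. Genes in general are denser there, with 10.6 per Mb in the outer 5 Mb and 7.48 in the next 5 Mb, against 5.84 in the innermost zone. The share of all long genes within this range was not counted. Not every long gene in that range had summits, since CSMD1, 2060 kb long and 2.94 Mb from an end, had 0. SEPTIN9, a cytoskeletal GTPase gene with many alternative starts, had 12 TSS peaks, the best with 124 fragments. RBFOX3, a neuronal splicing factor gene, had 31 summits, of which 1 was in a TSS peak, and the highest had 23 fragments.

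CCDC200, on chromosome 17, was of another kind. Its 37 summits lay in 88.5 kb, with a median of 83 fragments and a highest of 485, the most of any BRG1 peak. For 36 of the 37 the sequence about the summit occurs more than once in hg38, with a median of 11.5 copies. The study's methods keep uniquely placed reads, and fragments within repeated sequence cannot be assigned to 1 copy with the same certainty. With such summits left out, CAMTA1 had the most.

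**Figure D1:**
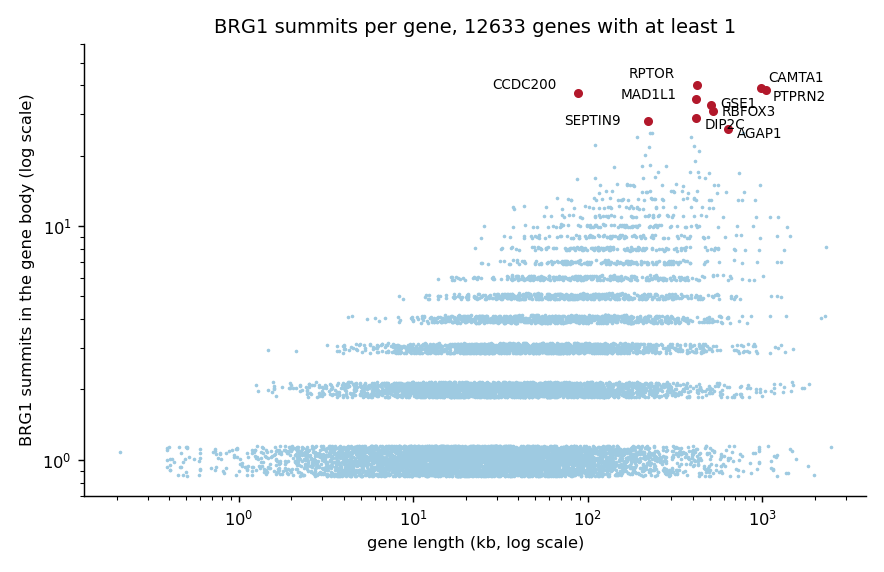
Each point is 1 of the 12633 genes with a BRG1 summit, by gene length (kb, log scale) and number of summits (log scale, with a small vertical scatter), and the 10 genes with most summits are named. CCDC200 has 37 summits at 88.5 kb, well left of the other 9.

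Per length, compact genes led among those with at least 5 summits. CORO1B, a coronin of the actin cytoskeleton, had 6.02 summits per 10 kb, EFNA3, an ephrin ligand, 5.75, SIGIRR 4.26, RASL10B 4.21, PKP3, a desmosomal plakophilin, 4.07, MAFK 4.05 and ABCA7 3.91, beside CCDC200 (4.18) and the unnamed genes ENSG00000267335 (4.30) and ENSG00000263620 (4.11). PKP3 had the highest median of these genes apart from CCDC200, 53 fragments, with 38 to 73 in its 5 summits. At a -log10 q of at least 5, all 5 PKP3 summits remained, but 2 of 5 in SIGIRR and 0 of 5 in RASL10B, whose summits had 8 to 11 fragments. At the other end, some of the longest genes had no summit at all. The 10 longest of these ran from 1196 to 2242 kb and included CSMD1, LRP1B, PDE4D, LSAMP, IL1RAPL2 and DCC, of which LSAMP and DCC encode proteins of neural adhesion or axon guidance. MACROD2 was the 1 of the 10 with a TSS peak, with a -log10 q of 30.8.

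The strongest sites outside both IgG lists fell into those in repeated sequence and those in unique sequence. Of the 20 highest, 8 were at a TSS, 7 in introns and 5 between genes, and for 13 the summit sequence occurs more than once in the genome, as it does for 28 of the highest 100 and 12.1% of all BRG1 peaks. The highest was at the start of FAM86B1 on chromosome 8 (12193923 to 12195070), with 470 fragments where 24.7 were expected and 3 copies of its sequence. The next were in CCDC200 (chromosome 17, 43245892 to 43246820, 485 fragments, 10 copies) and at FARP2 (chromosome 2, 241355287 to 241356252, 332 fragments, 9.5 copies). The RASA4 and RASA4B genes on chromosome 7, which are near-identical copies, held 3 of the 20, with 298 to 389 fragments. In sequence that occurs once, the ranking began further down.

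ELL, a gene of the RNA polymerase II elongation machinery, had the highest single-copy site, 9th of all peaks (chromosome 19, 18521913 to 18522674), with 223 fragments where 8.91 were expected and the summit 270 bp upstream of its start. AHNAK, which encodes a very large scaffold protein, had an intronic site 2587 bp from its start with the same 223 fragments over 10.7 expected (chromosome 11, 62553259 to 62554282). Both summits held the AP-1 letters. An intron of C7orf50 had 177 fragments, the shared start of NUP98 (a nucleoporin) and PGAP2 160, an intron of TMC8 209, the start of EEPD1 157 and a start of ABCA7, a lipid transporter, 219. The other single-copy sites of the highest 20 of their kind included the starts of CIC, a transcriptional repressor (166 fragments), CARM1, an arginine methyltransferase (143), AP2A1, a clathrin adaptor (149), SF1, a splicing factor (149), KLHL26 (186), ATP8B3 (186), BRD3OS (129) and IMPA2 (144), and an intron of CELF5 (173). The only one between genes was the KRT80 site shown above.

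Place followed rank more closely in unique sequence. Of the highest 100 sites outside IgG, 60 were at a TSS, 19 in introns, 20 between genes and 1 in an exon. Of the highest 100 in single-copy sequence, 76 were at a TSS, 15 in introns, 8 between genes and 1 in an exon. Over all BRG1 peaks, repeated summit sequence was found in 3.39% at a TSS, 6.79% in exons, 12.4% in introns and 20.8% between genes.

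The highest single-copy sites away from a TSS often held the AP-1 letters. Beside AHNAK and KRT80, they included an intron of LDLRAD3 (130 fragments, AP-1 letters present), an exon of SDR42E2 (179), an intron of MATN1 (146), of LMTK3 (180), of CBL, a ubiquitin ligase of receptor kinases (AP-1 letters present), a site 30438 bp from FADD (AP-1 letters present) and one 26564 bp from CCN1 (109). Of the 20 highest such sites, 8 had these letters, the ones nearest to or in AHNAK, KRT80, HROB, LDLRAD3, TRIP13, PSMD6, CBL and FADD.

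AP-1 letters marked BRG1 summits away from starts. The letters TGANTCA were found within 200 bp about the summit in 5696 of 33628 peaks away from a TSS (16.9%, interval 16.5 to 17.3%), against 5.44% of windows of the same width 1 kb to each side, a ratio of 3.11. The same letters in another order, TCANTGA, were found in 5.22% of summits and 5.48% of flanks. At a TSS the AP-1 letters were in 4.80% of summits and 4.50% of flanks, at all gene starts in 3.06%, and in IgG 2 in 2.12% of summits and 2.72% of flanks. The rearranged letters at a TSS were in 2.22% of summits and 4.38% of flanks, so they fell at the summit where the AP-1 letters did not. An excess of AP-1 letters over flanks was seen in introns (17.5% against 5.29%) and between genes (17.9% against 5.73%), and less in exons (6.99% against 4.47%). Against the rearranged letters, AP-1 letters were also more frequent at TSS summits. With summits in repeated sequence left out, the share away from a TSS was 18.6%.

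The AP-1 share rose with peak height. In the highest of 10 equal bins of the peaks away from a TSS it was 38.9% (interval 37.2 to 40.5%), in the second 31.6%, in the fifth 11.5% and in the lowest 5.21%, which is near the flank. The rearranged letters ran only from 6.30% in the highest bin to 4.67% in the lowest. Peaks with AP-1 letters had a median of 11 fragments (quartiles 7 and 19) and those without 7 (5 and 12). Among the 5696 peaks with a match inside the 200 bp window, the centre of the nearest match lay a median of 38 bp from the summit (quartiles 18 and 62 bp). The window itself bounds this distance, and it was not compared with evenly spread matches, so alone it does not show centring.

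CTCF sites were fewer than AP-1 letters, both at summits and in flanks. They were found in 935 of the summits away from a TSS (2.78%, interval 2.61 to 2.96%) and in 0.189% of flanks, a ratio of 14.7, and in 0.739% of TSS summits and 0.106% of their flanks. The CTCF pattern is longer and rare in flanks. Its higher ratio therefore does not show that CTCF sites gather closer to the summit than AP-1 letters. In contrast to AP-1, the share was not highest in the top bin: it was 3.24% there, 5.95% in the second, 5.71% in the third and 0.506% in the lowest. IgG 2 had 1 match in 1746 summits.

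At gene starts the ETS, SP and NRF1 letters were about as frequent at summits as at gene starts in general, or less so. ETS letters were in 8.34% of TSS summits and 1.70% of their flanks, but in 11.2% of windows at all gene starts. They were more frequent 70 bp to the left of the summit on the plus strand (1.17% per 20 bp bin) and 90 bp to the right (1.12%) than in the bin next to the summit (0.666%). SP and KLF letters (GGGCGG) were in 54.8% of TSS summits, 16.1% of flanks and 53.9% of all starts, and NRF1 letters (GCGCATGCG) in 1.503%, 0.0791% and 1.90%. None of these 3 was above its share at all starts by more than 1 percentage point. Others were above it. AP-1 letters were in 4.80% of TSS summits (interval 4.47 to 5.15%) and 3.06% of all starts. The longer KLF letters GGGNGTGG were in 15.1% and 12.6%, and CTCF letters in 0.739% and 0.229%. The windows at all starts are centred on 1 start per gene, while TSS summits can lie to the side of any coding start. The part of this difference in position was not tested. TSS peaks with ETS letters had a median of 20 fragments and those without 18.

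Letters of gastric and gut factors showed no comparable gain away from starts. The letters AGATAA of GATA factors were in 4.37% of summits and 9.31% of flanks, and TGTTTAC of FOXA in 2.34% and 2.18%. HNF4 (CAAAGTCCA) was in 0.244% and 0.260%, and GRHL (AACCGGTT) in 11 summits and 30 flank windows. The FOXA share was 3.84% and 3.95% in the first and second bins by height and 2.02% in the lowest. TEAD (GGAATG) was in 12.3% of summits and 10.5% of flanks, with 15.5% in the highest bin and 10.9% in the lowest, and in IgG 2 in 18.8% and 18.2%. KLF (GGGNGTGG) was in 11.3% and 9.41%, and GGGCGG in 15.1% and 7.66%. Summits are richer in G and C than their flanks (57.5% against 47.75% between genes), which moves with the low AGATAA and the high GGGCGG shares, and its part in them was not tested. All letters were searched on both strands, and a match is a description and not a binding site.

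The core of the antioxidant response element (ARE), TGACNNNGC, can overlap the AP-1 letters. It was in 11.9% of summits away from a TSS and 7.85% of flanks. AP-1 letters were in the same window for 1059 of these 4017 peaks (26.4%), and among summits without AP-1 letters the core was in 10.6%.

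Part of the BRG1 peaks lay in runs. When peaks separated by gaps of up to just over 12 kb were joined, 27121 regions resulted, 17363 of them with 1 peak. Regions with 5 or more peaks numbered 1393 and held 10881 peaks (22.3%), a number that fell to 2344 when peaks under a -log10 q of 5 were dropped and to 1341 with a gap of 5 kb. The region with most was on chromosome 19 from 814282 to 1184054, with 78 peaks over 19 coding genes, MED16, WDR18, ABCA7, POLR2E, GPX4 and SBNO2 among them, and 30 of these peaks were at a TSS. Others on chromosome 11 had 44 peaks (432419 to 628796, with PTDSS2, RNH1 and IRF7), 40 (746834 to 877901, with TALDO1, CD151 and POLR2L) and 39 (65471482 to 65663912, with MAP3K11, SIPA1 and RELA). In these 3 regions the share at a TSS was 33.3 to 37.5%.

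Exceptions among the 10 regions with most peaks were made of repeated sequence. The CCDC200 and TMEM106A region on chromosome 17 (43211800 to 43334439) had 43 peaks, 38 with repeated summit sequence and a median of 76 fragments. On chromosome 21, from 8377138 to 8471413, 33 peaks with a median of 110 fragments lay over no coding gene, all 33 with repeated summit sequence. The other 8 had medians of 16.5 to 31 fragments and at most 6 such peaks each.

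Very few BRG1 peaks shared a base with an IgG peak. The number was 8 for IgG 1 (0.0164%) and 338 for IgG 2 (0.693%), or 340 for either (0.697%, interval 0.627 to 0.775%), which left 48453 outside both. The IgG 1 peaks are named after the BRG1 run in their list, and whether IgG 1 was the control given to the caller is not stated in the sources used here. If it was, BRG1 peaks where IgG 1 is high were less likely to be called, and the overlap with IgG 1 would be lowered by construction. At the IgG 1 peaks that touched a BRG1 peak, the caller's BRG1 expectation was always below the IgG 1 fragments, without a correction for depth. It was 0.420 against 17 in an intron of RPS6KA2 and 9.94 against 63 at the end of X. Whether IgG 1 entered these expectations was not tested. Read from the other side, 9 of the 11 IgG 1 peaks (81.8%) and 297 of the 1746 IgG 2 peaks (17.0%) touched a BRG1 peak. Sharing was unequal among places, with 0.0923% of TSS peaks, 0.399% of exon, 0.531% of intron and 1.47% of intergenic peaks. It was more common among the highest peaks, with 7 of the highest 100 and 23 of the highest 1000. Repeated summit sequence was found in 251 of the 340 (73.8%).

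The IgG 1 peaks lay mainly at chromosome ends. Of the 11, 6 were within 50 kb of an end, at chromosomes 12 (both ends), 5 (2 peaks), 22 and X. The highest was at the end of X (156030355 to 156030739), with 63 fragments, and the BRG1 peak there had 346 (9.94 expected) and ranked 3rd of the library. On chromosome 18 (80262919 to 80263115) IgG 1 had 13 fragments and BRG1 162, and at the far end of chromosome 12 IgG 1 had 19 and BRG1 108. These 3 sites had 922 to 933 copies of the sequence. All 3 ranked among the highest BRG1 peaks, while the chromosome 18 site was below the IgG 1 median of 17 fragments. In an intron of RPS6KA2 on chromosome 6 the order was reversed, with 17 fragments in IgG 1 (0.422 expected) and 8 in BRG1 (0.420 expected). An intron of NOC4L had 8 and 17. The 2 IgG 1 peaks without a BRG1 peak were in an intron of KNDC1 on chromosome 10 and in an intron on chromosome 16 near HSD11B2, each with 4 fragments. Fragment numbers of different libraries are set side by side without a correction for depth.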

How the data were processed

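CUT&Tag of SNU638 cells was sequenced from 1 library each for anti-BRG1, anti-ACTL6A and anti-NRF2 and 2 for IgG, and the deposited MACS2 peak lists (hg38) were used. Per the labels the submitters' processing notes also name fastp 0.23.0, BWA, deepTools and HOMER 4.11. The study's methods state that uniquely mapped reads were given to the caller at a q of 0.05. The control given to it is not given in the sources used here. Each deposited row holds a score, which is 10 times the −log10 q, a fold enrichment (ratio, with 1 added to both terms), the −log10 p and −log10 q, and the summit. The authors pooled no replicates, since there were none.

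From these, fragments at a summit and their expectation were recovered as the whole number whose fold and Poisson p matched the deposited values within 0.001 on the −log10 scale. This gave a whole number for nearly all BRG1 peaks (100% to 3 digits) and for 99.3% of IgG 2 peaks. The lists hold no read totals, so depth enters only through these numbers, and the read totals the study states were not used here. Places used GENCODE 44 and the 19689 genes with a protein-coding transcript on the main chromosomes. The copy number of a summit sequence is the median count in hg38 of 6 stretches of 31 bases about it. Motifs were searched in 200 bp about the summit. Scripts used Python 3.11.15, NumPy 2.4.6, SciPy 1.17.1 and pandas 2.3.3, and were tested on simulated peaks.

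The members were all BRG1 peaks. The gene lists, motifs and comparisons were chosen with earlier results of these data known. Named genes are members of the lists, the 20 highest peaks outside IgG, the 10 genes with most summits, most per 10 kb or longest with none, the 10 regions with most peaks and the IgG 1 peaks. The single-copy rankings, the sites printed as sequence, the chromosome-end zones and the recovery of fragments were added after the data were seen. Some members of these lists are not reported here. Peaks on Y were left out of the comparison of chromosomes.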

Additional observations from a re-analysis of the deposited data

How the results depend on the processing

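No paired analysis was possible because BRG1 was profiled in a single library. A share was taken as the same if it stayed within the interval of the reported share, and a count if it stayed within 1.5 times the reported count. Of 79 alternative values for 13 results, 30 stayed by these rules and 49 moved. A share could thus move by a small amount. The share of peaks at a TSS (31.1%) was 47.4% at a -log10 q of at least 5, 65.0% in the highest 5000 peaks, 24.9% with a TSS distance of 250 bp, 37.7% with 3 kb and 42.8% with all GENCODE genes. The shares in exons, in introns and between genes were 3.04, 22.2 and 27.4% at a -log10 q of at least 5, 1.54, 14.2 and 19.2% in the highest 5000, 6.22, 34.7 and 34.1% with 250 bp, and 3.99, 26.9 and 31.4% with 3 kb. With all GENCODE genes the exon share was 5.44% and that between genes 20.5%, and with any base of the peak the exon share was 8.12%. Of the alternatives added after the data were seen, the summit within 1 kb gave 30.2% at a TSS and 31.4% in introns, and single-copy summits gave 34.1% at a TSS, 5.44% in exons and 29.6% between genes. In the highest 5000 peaks 3736 genes had a TSS peak, 2650 a body summit, and the most in 1 gene was 15 (CCDC200). Peaks shared with IgG 2 (338) were 209 at a -log10 q of at least 5, 60 in the highest 5000 and 132 with 50% of both peaks. AP-1 letters away from a TSS (16.9%) were in 29.5% at a -log10 q of at least 5, 38.3% of the highest 5000, 18.6% of single-copy summits, 10.2% with 100 bp, 23.1% with 400 bp and 18.1% of whole peaks. At a TSS (4.80%) they were in 4.46% of the highest 5000, 2.44% with 100 bp, 8.03% with 400 bp and 8.43% of whole peaks. ETS letters at a TSS (8.34%) were in 9.70% at a -log10 q of at least 5, 9.35% of the highest 5000, 3.63% with 100 bp, 15.6% with 400 bp and 17.7% of whole peaks. Peaks in regions of 5 or more (10881) were 1341 with a gap of 5 kb, 18736 with 20 kb and 2344 at a -log10 q of at least 5. Wider windows must hold more matches and stricter lists fewer peaks. The cause of the other shifts was not tested. With 3 to 6 fragments, the lowest peaks limit what can be said of any single site.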
